A study of Mus musculus with 6 samples.

Results

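The cytosolic ribosomal protein genes were taken as all protein-coding rows of the deposited tables whose symbol follows the pattern of the large-subunit (Rpl), small-subunit (Rps) or acidic stalk (Rplp) proteins, together with Rpsa. This gave 84 genes of 55401 rows, 52 for the large and 32 for the small subunit. They lie on 19 chromosomes, with 14 on chromosome 7 and 4 (Rpl10, Rpl36a, Rpl39 and Rps4x) on the X chromosome. They were measured by mRNA sequencing in NIH3T3 cells, an immortalised wild-type mouse embryonic fibroblast line, in 3 libraries from cells given IPRN and 3 from cells given the DMSO vehicle. Only the abbreviation IPRN stands in the labels for the compound, and angelicin, a furanocoumarin from plants, is the agent in the series title. The design text describes stimulation with hydrogen peroxide and TGF-β to model cancer-associated fibroblasts, but neither dose nor time is given, and the labels leave unsaid whether the DMSO cells were stimulated too.

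Ribosomal proteins assemble with ribosomal RNA into the small subunit, which reads the mRNA, and the large subunit, which joins amino acids. In mammals their mRNAs are abundant, short, and begin with a 5′ terminal oligopyrimidine (TOP) run of C and T, through which the kinase mTORC1 and the RNA-binding protein LARP1 control their translation and storage. The genes have left many processed pseudogenes, copies made by reverse transcription of the mRNA, so that a read can often be placed on a copy as well as on its parent.

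Total counts ran from 63594179 to 74183334 in IPRN libraries and from 60320282 to 78629444 in DMSO libraries. Levels are given as CPM, counts scaled to the size of the library. The 12 fibroblast markers were abundant, with sums from 24297 to 27305 CPM over the IPRN libraries and from 23019 to 23868 CPM over the DMSO libraries. The summed 22 liver markers reached 117, 41.3 and 1.05 CPM in IPRN 1, 2 and 3 and 1.03, 61.4 and 33.4 CPM in DMSO 1, 2 and 3, and none of the 22 was at 0 in every library. Leukocyte markers (6 genes) summed to 119 CPM in IPRN 3 against at most 11.6 CPM in any other library. Lists of muscle, germ cell, epithelial and endothelial markers stayed at or below 5.98 CPM. The part of these markers in the results was not tested. Without DMSO 1 and IPRN 3, the libraries with the least liver marker RNA, 0 of 82 tested ribosomal protein genes were called, where 0.3% of all tested genes were called (0.238% lower and 0.0624% higher), and the members' median log2 fold change was -0.10. All libraries kept in that fit carried liver marker RNA and few genes passed, so it cannot show the part of the markers.

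IPRN 1 stood apart from the other libraries in these genes. Of the 82 that passed the expression filter, 51 (62.2%) had their lowest level in IPRN 1, against 29.3% of all 2131 tested genes of at least 100 CPM, and 13 had their highest level there. The members' deviation from the mean of the other 5 libraries had a median of -0.15 on the log2 scale in IPRN 1, and between -0.01 and 0.07 in the other libraries. The spread of that deviation over the members was 0.32 (SD) in IPRN 1 and between 0.14 and 0.21 in the others. Over the tested genes of at least 100 CPM the median deviation of IPRN 1 was -0.01, with an SD of 0.34. Over the same genes IPRN 3 was spread as widely, with an SD of 0.35, and the remaining libraries had SDs between 0.20 and 0.22. Over the same 82 genes the median coefficient of variation was 9.02% among the 3 IPRN libraries, 2.20% between IPRN 2 and IPRN 3, and 2.09% among the 3 DMSO libraries. Results are therefore given with IPRN 1 and without it. Since IPRN 1 was singled out by the members' own values, leaving it out narrows their spread by that choice. All tested genes were not selected in this way.

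**Figure D1:**
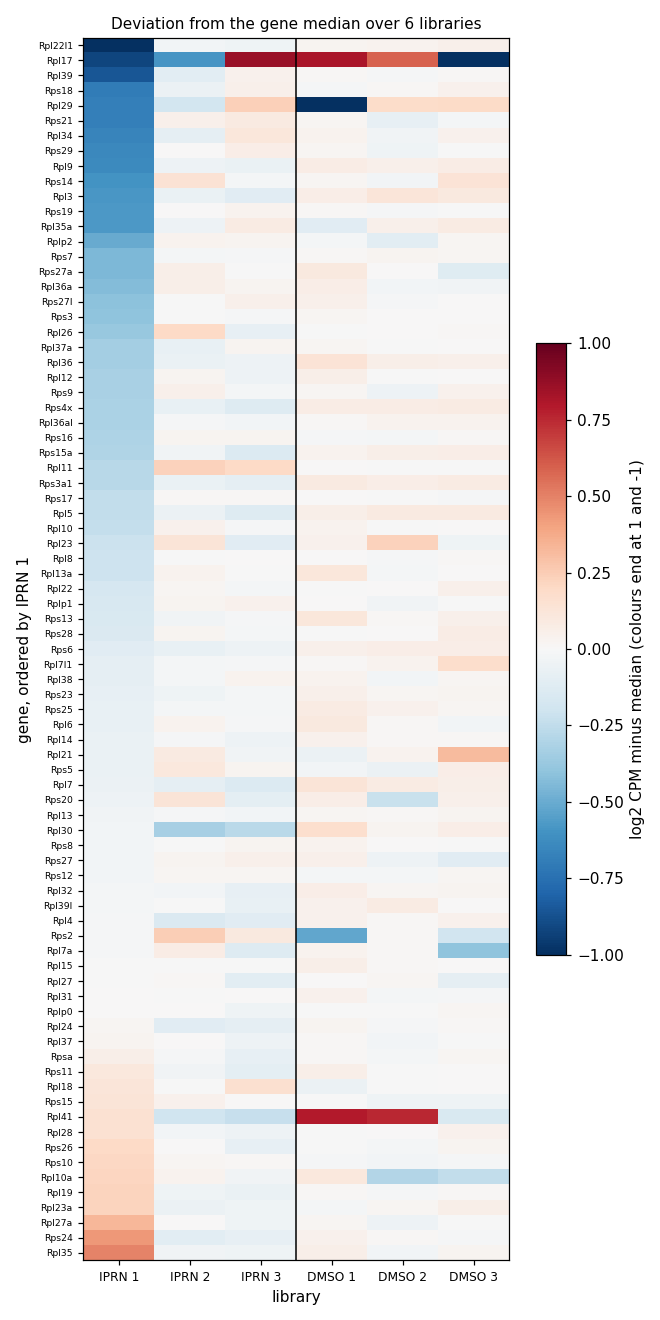
Each row is 1 of 81 tested ribosomal protein genes and each column 1 library, with IPRN left of DMSO; the colour is the log2 CPM minus the gene's median over the 6 libraries. The column of IPRN 1 holds most of the strong colours, blue for the 51 genes that are lowest there and red for genes such as Rpl35 and Rps24, while Rpl41 and Rpl17 change level between libraries of 1 group.

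The comparison of IPRN with DMSO showed no ribosomal protein gene that passed the test with all 6 libraries. By edgeR's quasi-likelihood test, adjusted over all 17159 tested genes, 0 of 82 members were called at an adjusted p under 0.05, where 5.47% of all tested genes were called (3.01% lower and 2.46% higher in IPRN). At an unadjusted p under 0.05, 11 members were lower and 1 was higher in IPRN, where 10.8% and 11.2% of all genes were. DESeq2 called 6 members lower (7.32% of 82) and 0 higher, where it called 7.41% and 7.64% of the genes it tested, 15% in all. These were Rpl3, Rpl5, Rpl7, Rpl30, Rps3a1 and Rps4x. The members' log2 fold changes had a median of -0.08, against 0.00 over all tested genes. They lay below 0 for 64 members (78%) and for 49.8% of all tested genes. In bulk RNA, fewer cells expressing a gene and less RNA per cell cannot be told apart.

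The differences were small. The log2 fold change lay within 0.25 of 0 for 73 of the 82 members, and the 95% interval lay wholly within 0.5 of 0 for 66. The 3 IPRN values all lay below the 3 DMSO values for 24 members (29.3%, against 14.7% of all tested genes) and all above them for Rps10 and Rps15 (2.44%, against 14.9%). Without IPRN 1 the members' median was -0.02, with 52 of 82 below 0 (51.1% of all tested genes were below 0). The groups then did not overlap for 32 members with IPRN lower (against 20.7% of all tested genes) and 9 with IPRN higher (against 20.9%). The medians of the large and small subunits were -0.07 over 50 tested genes and -0.08 over 32. Without IPRN 1 these medians were -0.03 and 0.01, with 37 of 50 large-subunit genes below 0 and 15 of 32 small-subunit genes.

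**Figure D2:**
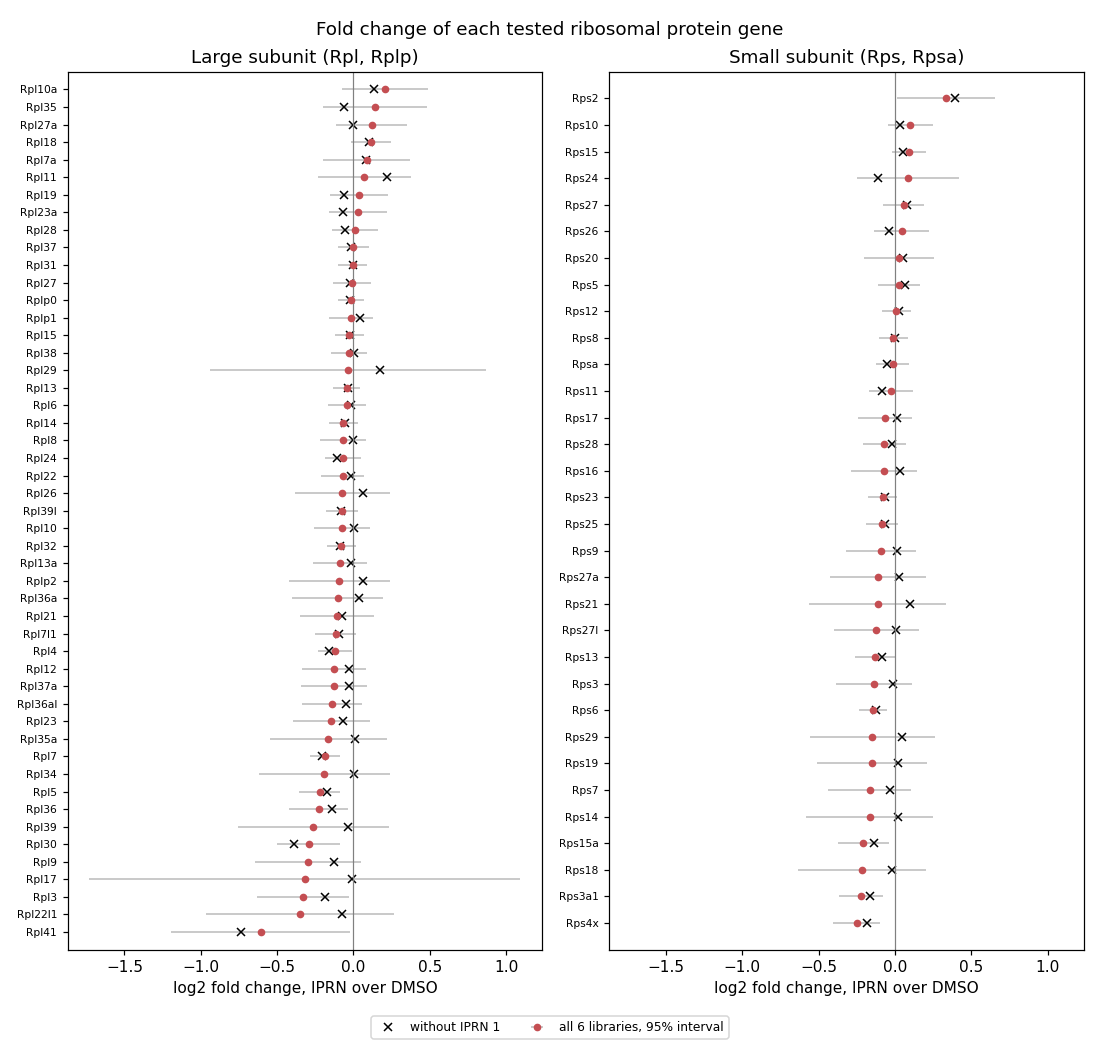
Points are log2 fold changes of IPRN over DMSO with their 95% intervals from the edgeR fit on all 6 libraries, for 49 large-subunit and 32 small-subunit genes; crosses are the fit without IPRN 1. Most points lie a little left of 0 and most intervals cover 0 (70 of 82 over all tested members), while for many genes the cross lies nearer to 0 than the point.

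Among large-subunit genes, Rpl7 came closest to the threshold. Rpl7 (ENSMUSG00000043716, chr1:16101295-16104662, minus strand), whose protein binds 28S rRNA, had 1312, 1287 and 1243 CPM in IPRN libraries, against 1495, 1448 and 1430 CPM in DMSO libraries (log2 fold change -0.19 ± 0.04 SE, edgeR adjusted p = 0.0550). Its groups did not overlap, with IPRN 1 the highest of the IPRN libraries. The adjusted p of Rpl7 ran from 0.0219 to 0.378 over 19 alternatives and was below the threshold in 7. Rpl5 (chr5:107900502-107909005, plus strand), which carries 5S rRNA into the ribosome together with Rpl11, had 1010.4, 1151 and 1098 CPM in IPRN libraries and 1248, 1278 and 1274 CPM in DMSO libraries (-0.22 ± 0.06, edgeR adjusted p = 0.0722). These groups did not overlap either. Rpl11 (chr4:136028265-136053428, minus strand) gave the opposite order in 2 of its 3 IPRN libraries, with 484, 689.8 and 674 CPM in IPRN 1, 2 and 3 and 588, 584 and 586 CPM in DMSO libraries (0.07 ± 0.13, edgeR adjusted p = 0.818). In IPRN 2 and IPRN 3, Rpl11 lay above all DMSO libraries while Rpl5, its partner in the 5S particle, lay below them.

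Rpl3, a core protein near the catalytic centre, had 506, 721 and 698 CPM in IPRN libraries and 794, 821 and 808 CPM in DMSO libraries (-0.33 ± 0.13, edgeR adjusted p = 0.186). All IPRN values lay below all DMSO values, with IPRN 1 far below the other libraries, and without IPRN 1 the log2 fold change was -0.19 (edgeR adjusted p = 0.0295). Rpl4, which lines the exit tunnel for the nascent chain, averaged 1667 ± 81.0 CPM in IPRN and 1813 ± 23.3 CPM in DMSO (SD, n = 3 each). Rpl30 averaged 101 ± 11.4 CPM in IPRN and 124 ± 6.21 CPM in DMSO. Neither Rpl4 nor Rpl30 passed with all libraries (edgeR adjusted p = 0.197 and 0.106).

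The proteins of the acidic stalk, which recruits translation factors, showed differences within the spread of the libraries. Rplp0 (chr5:115559467-115563727, plus strand) had 3635, 3628 and 3511 CPM in IPRN libraries and 3604, 3615 and 3678 CPM in DMSO libraries, and its 95% interval ran from -0.10 to 0.07 (log2; edgeR adjusted p = 0.862). Rplp1 averaged 1723 ± 129 CPM in IPRN and 1743 ± 25.6 CPM in DMSO, and Rplp2 522 ± 103 CPM in IPRN and 557 ± 24.5 CPM in DMSO. Neither difference passed (edgeR adjusted p = 0.921 and 0.781). Rplp1 and Rplp2 were both lowest in IPRN 1, whereas Rplp0 was not.

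The highest fold changes of the large subunit lay with Rpl10a and Rpl35. Rpl10a had 889, 783 and 748 CPM in IPRN libraries and 825, 624 and 646 CPM in DMSO libraries (0.21 ± 0.12, edgeR adjusted p = 0.375), and DMSO 1 lay above IPRN 2 and IPRN 3. Rpl35, which sits at the mouth of the exit tunnel, had 1278, 881 and 878 CPM in IPRN libraries and 944, 887 and 922 CPM in DMSO libraries. Its mean was higher in IPRN through IPRN 1 alone, and its log2 fold change was 0.14 with all libraries and -0.06 without IPRN 1 (edgeR adjusted p = 0.653 and 0.371). Rpl27a and Rpl18, next in order, had log2 fold changes of 0.12 and 0.11 and did not pass (edgeR adjusted p = 0.562 and 0.296).

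In the small subunit, Rps4x (chrX:102184941-102189394, minus strand), the X-linked form of S4, had 1238, 1461 and 1404 CPM in IPRN libraries and 1624, 1621 and 1633 CPM in DMSO libraries (-0.25 ± 0.07, edgeR adjusted p = 0.0778). The DMSO values were close together, and all IPRN values were lower. Rps3a1 had 1518, 1754 and 1726 CPM in IPRN libraries and 1955, 1929 and 1949.8 CPM in DMSO libraries (-0.22 ± 0.06, edgeR adjusted p = 0.0872). Rps6 (chr4:86854660-86857412, minus strand), the protein that S6 kinases phosphorylate downstream of mTORC1, had 1656, 1706 and 1731 CPM in IPRN libraries and 1857, 1875 and 1882 CPM in DMSO libraries (-0.14 ± 0.04, edgeR adjusted p = 0.0865). For these 3 genes the groups did not overlap, and IPRN was lower by between 1.10-fold and 1.19-fold.

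Rpsa, also known as the laminin receptor, averaged 2264 ± 107 CPM in IPRN and 2288 ± 30.3 CPM in DMSO (edgeR adjusted p = 0.904). Rps27a, made as a fusion to ubiquitin, averaged 744.7 ± 134 CPM in IPRN and 805 ± 60.3 CPM in DMSO (edgeR adjusted p = 0.704). Rps15, 1 of the 2 genes with all IPRN values on the higher side, had 1085, 1024 and 995 CPM in IPRN libraries and 988, 962 and 964 CPM in DMSO libraries (0.09 ± 0.05, edgeR adjusted p = 0.327). Rps10, the other, had 409, 359 and 358 CPM in IPRN libraries and 351, 348 and 351 CPM in DMSO libraries (edgeR adjusted p = 0.413).

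Without IPRN 1 the test called 9 of 82 members (11%), where it called 5.86% of 17861 genes. IPRN 1 was singled out after the members' values were seen, so these shares are not on equal terms. In that fit Rpl3, Rpl4, Rpl5, Rpl7, Rpl30, Rps3a1, Rps4x and Rps6 fell (8 members, 9.76%, against 3.32% of all tested genes called lower) and Rpl11 rose (1 member, against 2.54% called higher). Their log2 fold changes were modest, -0.12 for Rps6, -0.39 for Rpl30 and 0.22 for Rpl11, with edgeR adjusted p-values of 0.0359, 0.0216 and 0.0141. Of the reads of Rpl30 and its sequence-matched copies, 80.1% lay in copies. With all libraries the log2 fold change of Rpl30 was -0.29, and -0.21 with these copies added. With copies added, Rpl30 and Rps6 were not called without IPRN 1. Over 19 alternatives the adjusted p of Rps6 ran from 0.0359 to 0.354, that of Rpl30 from 0.0216 to 0.431 and that of Rpl11 from 0.0141 to 0.999. Leaving out IPRN 2, IPRN 3, DMSO 1, DMSO 2 or DMSO 3 instead gave at most 1 called member, and in these fits fewer genes were called over the whole table as well. Without IPRN 2 it was 1 member, called lower, where 1.32% of tested genes were called, 0.91% lower and 0.41% higher.

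**Figure D3:**
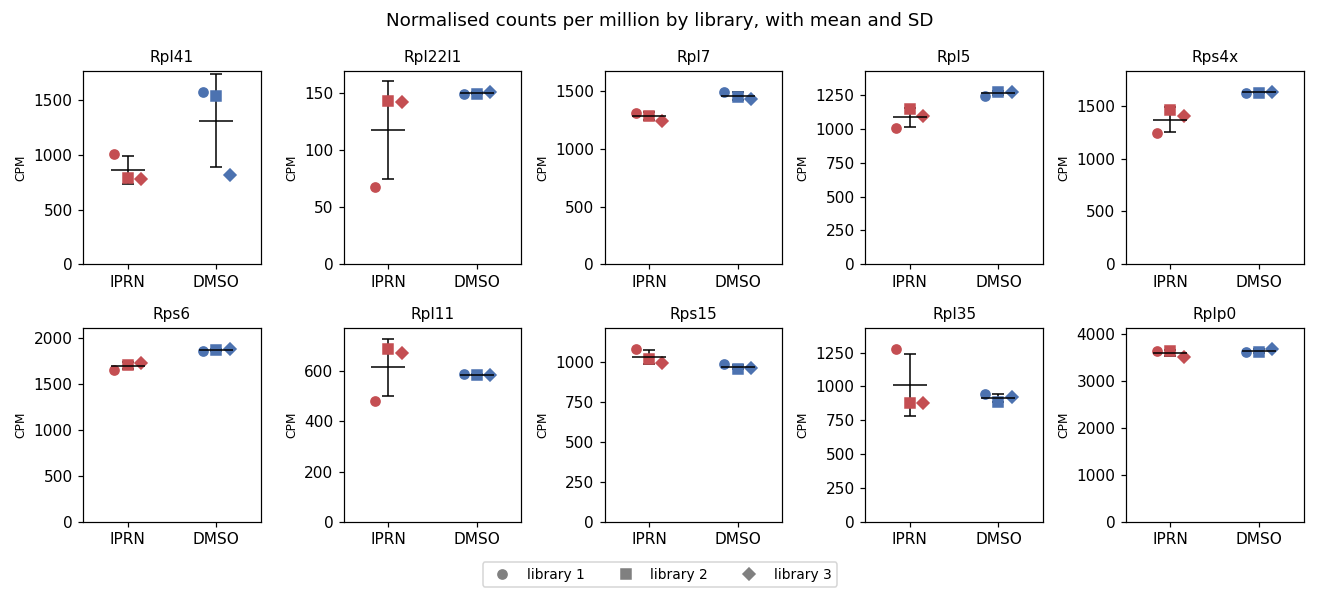
Normalised counts (CPM) of 10 ribosomal protein genes, IPRN left of DMSO, with symbols for libraries 1, 2 and 3 and black bars for the mean and SD of 3 libraries; each axis starts at 0. Rpl7, Rpl5, Rps4x and Rps6 show IPRN values a little below tight DMSO values, Rpl22l1, Rpl11 and Rpl35 show IPRN 1 away from the rest, and Rpl41 shows DMSO 3 among the IPRN values.

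A few members sat at distinct levels in libraries of the same group. Rpl41 (chr10:128548114-128549162, minus strand), which encodes the smallest ribosomal protein, had the lowest fold change of all members. It had 1011, 793 and 778 CPM in IPRN libraries and 1579, 1536 and 820.4 CPM in DMSO libraries (-0.61 ± 0.25, edgeR adjusted p = 0.209). DMSO 3 lay among the IPRN libraries, and without it Rpl41 fell (edgeR adjusted p = 0.0483, against up to 0.610 over the 19 alternatives). Rpl41 was then the 1 called member, where 1.04% of all tested genes were called, 0.742% lower and 0.298% higher. Rpl17 had 77.3, 97.2 and 266 CPM in IPRN libraries and 258, 221 and 70.2 CPM in DMSO libraries, so that each group held both levels (edgeR adjusted p = 0.828).

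Paralogs, second genes for the same ribosomal position or relatives of it, were measured beside their parents. Rpl22l1 had 68.0, 143 and 142 CPM in IPRN libraries and 149, 149 and 151 CPM in DMSO libraries (-0.35 ± 0.26, edgeR adjusted p = 0.510). Its groups did not overlap, but IPRN 2 and IPRN 3 lay close to DMSO, and the log2 fold change without IPRN 1 was -0.07. Its parent Rpl22 averaged 219 ± 14.9 CPM in IPRN and 229.6 ± 4.53 CPM in DMSO. Rpl39 had 256, 429.9 and 477 CPM in IPRN libraries and 466, 461 and 468 CPM in DMSO libraries (-0.26 ± 0.21, edgeR adjusted p = 0.542), and without IPRN 1 the log2 fold change was -0.04 and the groups overlapped. Rpl39l, the form known from mouse testis, was steadier, with 184, 185 and 177 CPM in IPRN libraries and 192, 197 and 187 CPM in DMSO libraries (-0.07 ± 0.04, edgeR adjusted p = 0.401). In IPRN 1 Rpl39 was at its lowest and Rpl39l was not.

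Rps27l, known as a p53 target, averaged 114 ± 18.9 CPM in IPRN and 124 ± 2.63 CPM in DMSO, and its parent Rps27 averaged 419.9 ± 12.03 CPM in IPRN and 403 ± 23.4 CPM in DMSO. Rpl36al averaged 188 ± 21.1 CPM in IPRN and 207 ± 1.94 CPM in DMSO, and Rpl36a 232 ± 41.7 CPM in IPRN and 249.5 ± 9.72 CPM in DMSO. Rpl7l1 averaged 163 ± 4.54 CPM in IPRN and 177 ± 10.98 CPM in DMSO. These 5 genes did not pass (edgeR adjusted p from 0.298 for Rpl7l1 to 0.713 for Rpl36a). Both members outside the filter were paralogs as well. Rpl3l, the muscle form of Rpl3, had 13, 4 and 4 counts in IPRN libraries and 0, 0 and 7 counts in DMSO libraries, so that no difference was detectable at this depth. Rpl10l, the intronless form of Rpl10, was at 0 counts in every library (a count of 0 allows up to 3), while Rpl10 averaged 472 ± 48.3 CPM in IPRN and 497 ± 7.49 CPM in DMSO.

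Reads were shared with copies to very different degrees. By sequence, 1142 other gene models matched a member transcript (at least 90% identity over at least 80% of the model), 787 of them with a count in some library, and 317 models are named in the files as pseudogenes of a member. The sequence-matched copies held on average 1.73 ± 0.0960% of all counts in IPRN libraries and 1.85 ± 0.0221% in DMSO libraries (SD, n = 3 each). Copies held under 5% of the reads of parent and copies for 37 members, between 5% and 50% for 36, and more for 10, namely Rpl3, Rpl7a, Rpl17, Rpl21, Rpl29, Rpl30, Rpl34, Rpl35a, Rps2 and Rps18. Of Rpl29, Rps2 and Rpl34 the gene rows kept the least, with 98.3%, 97.2% and 90.2% of reads in copies. Their coding sequences were close to identical to those of a copy. The 879 coding bases of Rps2 differed from Rps2-ps13 at 7 positions, with 302 bases as the longest identical run. The 480 coding bases of Rpl29 differed from Gm13841 at 3 positions, and the 351 of Rpl34 from Rpl34-ps1 at 2. A stretch of 60 coding bases with the most differences is printed for each pair, from the GENCODE M21 transcripts on GRCm38, with the differing bases in capitals. The stretches start at coding base 42 for Rps2 (chr17:24718116-24721926, plus strand) and Rpl29 (chr9:106429454-106431568, plus strand), and at coding base 102 for Rpl34 (chr3:130726831-130730346, minus strand). The copies lie at chrX:52898588-52899469 (Rps2-ps13, plus strand), chr5:115801677-115802159 (Gm13841, minus strand) and chr6:71124610-71124963 (Rpl34-ps1, plus strand).
Rps2: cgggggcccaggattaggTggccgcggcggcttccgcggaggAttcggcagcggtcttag
Rps2-ps13: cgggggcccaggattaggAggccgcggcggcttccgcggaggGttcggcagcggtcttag
Rpl29: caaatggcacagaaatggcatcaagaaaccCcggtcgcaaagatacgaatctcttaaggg
Gm13841: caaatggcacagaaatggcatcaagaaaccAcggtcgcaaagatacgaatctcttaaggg
Rpl34: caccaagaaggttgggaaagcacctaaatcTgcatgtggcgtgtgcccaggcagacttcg
Rpl34-ps1: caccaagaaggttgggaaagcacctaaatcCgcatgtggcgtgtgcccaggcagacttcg

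The gene rows of these 3 members thus carried few of the reads. Rps2, the highest fold change of all members, had only 98.7, 118 and 106 CPM in IPRN libraries and 69.3, 99.9 and 86.9 CPM in DMSO libraries (0.33 ± 0.14, edgeR adjusted p = 0.208). With its copies it had 2468, 3856 and 3770.3 CPM in IPRN libraries and 3648, 3643 and 3678 CPM in DMSO libraries, and the log2 fold change turned to -0.12 (edgeR adjusted p = 0.734). That sign rests on IPRN 1, since the sums in IPRN 2 and IPRN 3 lay above every DMSO sum, and without IPRN 1 the summed log2 fold change was 0.06 ± 0.02 (edgeR adjusted p = 0.102). The low sum in IPRN 1 went chiefly with 1 copy, Rps2-ps10 on chromosome 18. It had 2.08 CPM in IPRN 1 against 1177 CPM in IPRN 2, 926 CPM in IPRN 3 and between 899 and 1018 CPM in DMSO libraries. Other copies stood out in IPRN 1 in both directions. Gm45855 had 47.7 CPM there and between 114 and 144 CPM in the other libraries, whereas Gm6311 had its highest level there, 233 CPM. The cause was not tested.

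For Rps18 a pair of overlapping models held the reads in different libraries. The copy Rps18-ps6 on chromosome 13 was at 0 in IPRN 3 and between 778 and 813 CPM in every other library. Rps18-ps4, whose longer model spans it on the plus strand (chr13:97751112-97760965), had 774 CPM in IPRN 3 and 0 in every other library. Rps18-ps4 is named for Rps18 but was not matched by sequence at the thresholds above. Without it the sum of Rps18 and its copies was 418 CPM in IPRN 3. With all copies named for Rps18, the sum was 1034, 1207 and 1190 CPM in IPRN libraries and 1219, 1217 and 1213 CPM in DMSO libraries, and every IPRN library lay below every DMSO library. The Rps18 row itself had 91.6, 142.5 and 154 CPM in IPRN libraries and 147, 150.2 and 153 CPM in DMSO libraries (-0.21 ± 0.18, edgeR adjusted p = 0.565).

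The Rpl17 row and its copies moved in opposite directions. The copies had 393, 401 and 247 CPM in IPRN libraries and 329, 327 and 455 CPM in DMSO libraries, high where the gene row was low. The sum was 469.9, 499 and 513 CPM in IPRN libraries and 587, 548 and 526 CPM in DMSO libraries, so the spread seen in the Rpl17 row shrank and the groups no longer overlapped (-0.16 ± 0.06, edgeR adjusted p = 0.151). Rpl29 with its copies had 755, 656 and 656 CPM in IPRN libraries and 676, 662 and 662 CPM in DMSO libraries (edgeR adjusted p = 0.726). Rpl34 with its copies had 298, 469 and 485 CPM in IPRN libraries and 501, 479 and 499 CPM in DMSO libraries, again lowest in IPRN 1 (edgeR adjusted p = 0.484). Rpl3 with its copies, chiefly Rpl3-ps1 on the X chromosome, had 1387, 1671 and 1607 CPM in IPRN libraries and 1811, 1822 and 1834 CPM in DMSO libraries (edgeR adjusted p = 0.111). With sequence-matched copies added to each parent, 1 of 82 members, Rpl7, fell (edgeR adjusted p = 0.0368), where 6.07% of all tested genes were called (3.29% lower and 2.78% higher), and the members' median was -0.08. When IPRN 1 was left out as well, 7 members were lower and 1, Rpl11, was higher, where 6.51% of all tested genes were called (3.61% lower and 2.91% higher). The 7 were Rpl3, Rpl4, Rpl5, Rpl7, Rpl21, Rps3a1 and Rps4x. Rpl30 and Rps6, called without IPRN 1 before copies were added, were not among them.

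**Figure D4:**
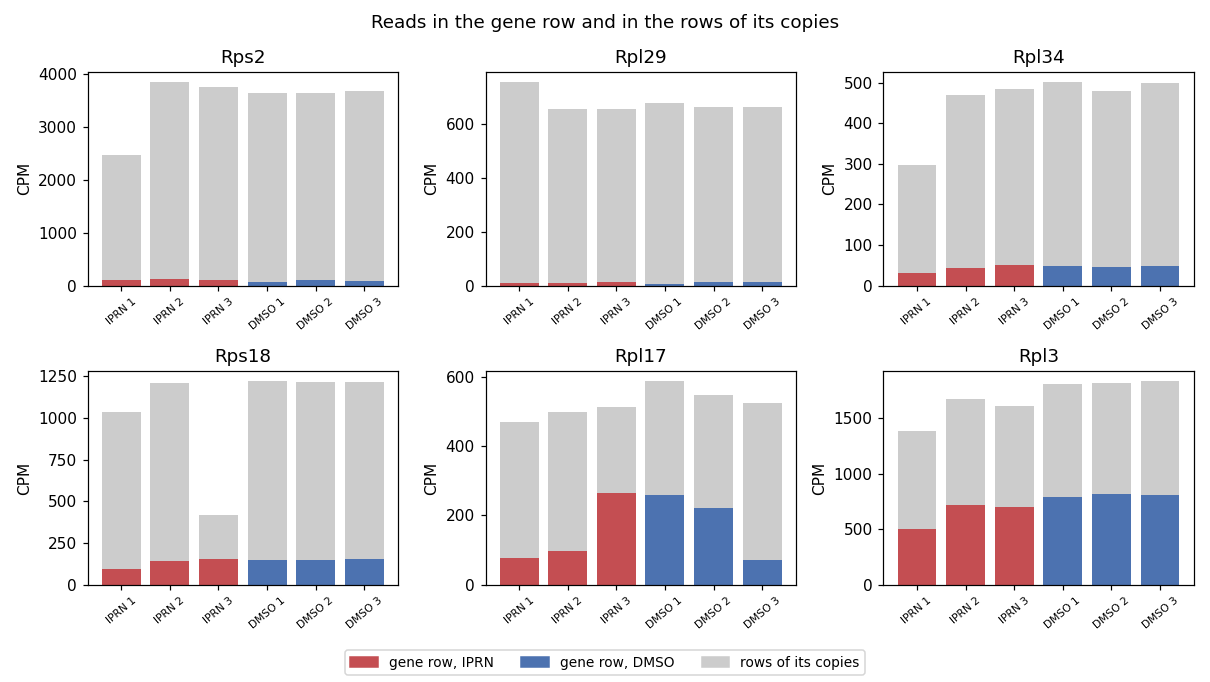
Stacked bars of CPM per library, IPRN left of DMSO, for the gene row (red in IPRN, blue in DMSO) and for the sum of the rows of its sequence-matched copies (grey). For Rps2, Rpl29 and Rpl34 the bars are nearly all grey, the Rpl17 row is high where its copies are low, and the copies of Rps2 are short in IPRN 1 and those of Rps18 in IPRN 3, where Rps18-ps4, not among the matched copies, held 774 CPM.

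Per length and by the gene rows alone, the acidic stalk genes Rplp1 and Rplp0 led. Rplp2 was at place 51 by FPKM and at place 24 by CPM per kilobase of mRNA. Reads placed on copies are left out of these levels, so members with most of their reads in copies can rank too low. Rps2, 1 of these 10 members, was at place 76 by FPKM and at place 80 by CPM per kilobase of mRNA. On the authors' deposited FPKM, Rplp1 averaged 3111 ± 279 in IPRN and 3136 ± 40.2 in DMSO, Rplp0 1948 ± 25.6 in IPRN and 1966 ± 18.3 in DMSO, and Rps3a1 1536 ± 141 in IPRN and 1787 ± 10.1 in DMSO (SD, n = 3 each). By the mean over all 6 libraries Rps15 and Rps6 came next, with 1477 ± 41.4 and 963 ± 37.0 FPKM in IPRN and 1384 ± 20.7 and 1059 ± 6.99 FPKM in DMSO. In IPRN libraries Rpl32, with 974 ± 15.1 FPKM, averaged above Rps6. By FPKM, the order of Rplp1, Rplp0, Rps3a1 and Rps15 held without overlap in DMSO libraries, whereas Rps3a1 and Rps15 overlapped in IPRN libraries. Of the 84 genes, 69 averaged at least 100 FPKM over the 6 libraries and 6 at least 1000 FPKM, and the median over the 82 tested was 292 FPKM. The lengths behind these FPKM values were proportional to the union of all annotated exons, with a ratio between 1.112 and 1.114 for 82 members, so genes with retained-intron models appear lower than their mRNA length would give. Rps24, for instance, has 6256 union bases but a median mRNA of 525 bases, and moved up from place 70 by FPKM to place 29 by CPM per kilobase of mRNA. Rpl13a moved up from place 17 to place 3 in the same way. The order of the leading genes changed as well, with Rplp0 at place 1, Rplp1 at place 2, Rps15 at place 6 and Rps3a1 at place 7 by CPM per kilobase of mRNA.

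The TOP motif was looked for at the annotated starts in RefSeq, on GRCm38.p6. A start at C followed directly by at least 4 further C or T was found in 13 of the 64 members listed there (20.3%), against 3.01% of 27025 genes in that table. For 5 members the 30 bases before and the 20 bases from the start on are printed, with the pyrimidine run in capitals, chosen after their values were seen as the lowest, the median and the highest fold change of the 13, with Rps6 and Rps10 between: Rps18 (chr17:33955646-33955695, minus strand), Rps6 (chr4:86857348-86857397, minus strand), Rpl14 (chr9:120571487-120571536, plus strand), Rps10 (chr17:27635225-27635274, minus strand) and Rpl35 (chr2:39005112-39005161, minus strand).
Rps18: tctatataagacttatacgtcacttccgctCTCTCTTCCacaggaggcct
Rps6: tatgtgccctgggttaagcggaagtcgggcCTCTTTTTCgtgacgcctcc
Rpl14: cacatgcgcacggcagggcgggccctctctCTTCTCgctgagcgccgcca
Rps10: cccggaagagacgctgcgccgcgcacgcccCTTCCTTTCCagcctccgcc
Rpl35: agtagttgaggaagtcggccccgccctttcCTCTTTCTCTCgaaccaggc

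Of the 13 members with such a start, 9 had a log2 fold change below 0, and without IPRN 1 it was 7. Of the other 49 tested members in the table it was 38, and without IPRN 1 34. From the lowest to the highest, the log2 fold changes were -0.21 for Rps18, -0.14 for Rps6, -0.07 for Rpl14, 0.10 for Rps10 and 0.14 for Rpl35. Without IPRN 1 they were -0.02 for Rps18, -0.12 for Rps6, -0.05 for Rpl14, 0.04 for Rps10 and -0.06 for Rpl35. The median was -0.07 over the 13 tested members with such a start and -0.07 over the 49 other tested members in the table. A match or its absence in the annotated start describes these letters only.

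The fold change of a member went with the GC content of its transcript. The members' GC content ran from 39.0% for Rpl22l1 to 60.8% for Rpl36, with a median of 51.9%, against 50.3% over all tested genes. Across the 82 members, the rank correlation of log2 fold change with GC content was 0.38 (Spearman), and across 17141 tested genes it was 0.29, both as descriptions, since all genes share the same 6 libraries and genes are not independent replicates. The median log2 fold change of all tested genes ran from -0.12 in the lowest sixth by GC content to 0.16 in the highest, and that of the members from -0.22 over 3 genes to -0.02 over 11. Whether GC content accounts for the members' differences was not tested. When each library's trend with GC content was removed, an alternative chosen after seeing the data, 1 of 82 members was called (Rplp0 fell, edgeR adjusted p = 0.0461, against up to 0.981 over 19 alternatives), where 2.51% of genes were called, 1.73% lower and 0.782% higher. In that fit the members' median was -0.10, and their rank correlation with GC content turned from 0.38 to -0.25. The members' median went from -0.22 to -0.10 in the lowest sixth by GC content and from -0.02 to -0.16 in the highest. Rpl7, Rpl5 and Rps4x then had log2 fold changes of -0.09, -0.10 and -0.15.

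With both the GC trend removed and IPRN 1 left out, 10 of 82 members were called (12.2%, against 3.08% of tested genes). This share stands beside the turn of the members' correlation with GC content to -0.25 in the corrected fit on all libraries. Whether that turn accounts for these calls was not tested. Lower were Rpl3, Rpl8, Rpl13, Rpl19, Rpl28, Rpl35, Rpl36, Rplp0 and Rps6 (9 members, where 2.14% of tested genes were called lower), and Rpl11 was higher (0.947% were called higher). Of these, 3, namely Rpl3, Rps6 and Rpl11, were also among the 9 called without IPRN 1 when the GC trend was kept. Transcript length showed no such run. The median log2 fold change of all tested genes lay between 0.01 and 0.02 in every quartile of mRNA length, and 76 of the 82 members were in the shortest quartile, with a median of -0.08.

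**Figure D5:**
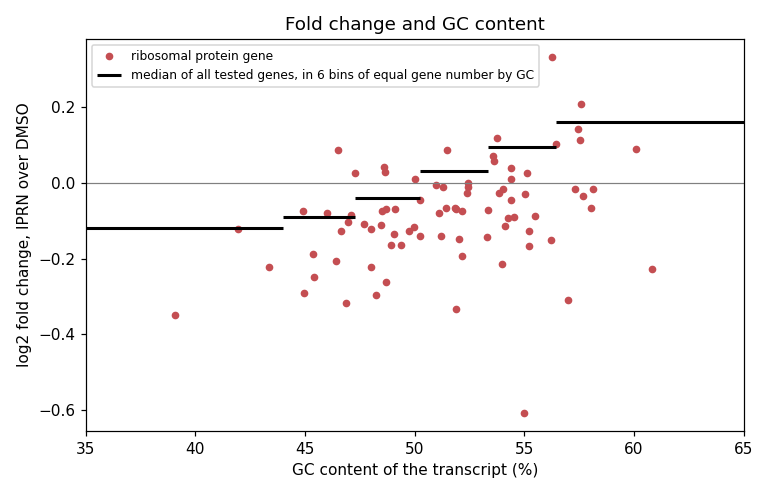
Log2 fold change of IPRN over DMSO against the GC content of the transcript for the 82 tested ribosomal protein genes (red), with the median of all tested genes in 6 bins of equal gene number (black lines, running on beyond the plot at both ends). The black lines climb with GC content and most red points lie below the line of their bin.

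Over 6 lists of 123 tested genes around the ribosome, 8 were called (6.5%, against 5.47% of all tested genes), and without IPRN 1 14 were (11.4%, against 5.86%). Among ribosomal protein genes outside the symbol pattern, Fau, a fusion to a ubiquitin-like sequence, averaged 732 ± 98.8 CPM in IPRN and 753 ± 11.3 CPM in DMSO. Rack1, a scaffold on the small subunit, averaged 1566 ± 346 CPM in IPRN and 1482 ± 6.94 CPM in DMSO. Neither passed (edgeR adjusted p = 0.869 and 0.816). Of 15 other TOP mRNAs, 3 were called lower and 0 higher (3.01% and 2.46% of all tested genes were). The list's median log2 fold change was -0.10. Without IPRN 1 the calls in this list went both ways, with 5 lower and 2 higher (3.32% and 2.54% of all tested genes). With all libraries, those that fell were Naca, of the nascent polypeptide-associated complex, with 601 ± 1.52 CPM in IPRN and 686 ± 2.05 CPM in DMSO, Hnrnpa1, an RNA-binding protein, with 1039 ± 26.7 CPM in IPRN and 1255 ± 27.3 CPM in DMSO, and Nap1l1, a histone chaperone, with 748 ± 18.2 CPM in IPRN and 861 ± 24.4 CPM in DMSO. Their edgeR adjusted p-values were 0.0372, 0.0199 and 0.0491. Called in addition without IPRN 1 were Eef1a1 and Npm1 on the lower side (log2 fold change -0.26 and -0.25) and the elongation factor genes Eef1d and Eef2 on the higher side (0.29 and 0.14).

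Of 7 host genes of small nucleolar RNAs, which often carry TOP starts, none passed (0 of 7 called, against 5.47% of all tested genes, median -0.15). Without IPRN 1 Snhg1 fell (edgeR adjusted p = 0.0485, log2 fold change -0.23), where 3.32% of all tested genes were called lower. Of 13 genes of mTORC1 and LARP1 control, 1 was called higher and 1 lower (2.46% and 3.01% of all tested genes were), and the median was 0.18. Rps6kb2, an S6 kinase whose exons overlap other gene models, rose 1.46-fold, with 23.4 ± 1.32 CPM in IPRN and 16.0 ± 1.06 CPM in DMSO (edgeR adjusted p = 0.0229). Larp4, a poly(A)-binding relative of LARP1 that overlaps another model, fell, with 126 ± 2.22 CPM in IPRN and 150.2 ± 6.12 CPM in DMSO (edgeR adjusted p = 0.0341). Of 7 chaperones that escort single ribosomal proteins, 1 was called lower and 0 higher (3.01% and 2.46% of all tested genes were), and the median was -0.22. It was Ltv1, an assembly factor of the small subunit, with 44.9 ± 1.29 CPM in IPRN and 54.7 ± 1.504 CPM in DMSO (edgeR adjusted p = 0.0378). The median over 78 mitochondrial ribosomal protein genes was 0.02. Of the 78, 2 were called higher (2.46% of all tested genes were) and 0 lower (3.01% were). These were Mrpl28, with 65.8 ± 2.99 CPM in IPRN and 51.2 ± 3.72 CPM in DMSO, and Mrpl49, which overlaps Syvn1, with 81.5 ± 4.99 CPM in IPRN and 64.6 ± 4.38 CPM in DMSO. Their edgeR adjusted p-values were 0.0384 and 0.0479. With the GC trend removed, 0 genes of these 6 lists were called, and the adjusted p of the 8 named genes ran from 0.0553 for Naca to 0.344 for Nap1l1. The 8 calls were also lost when any of IPRN 2, IPRN 3, DMSO 1, DMSO 2 or DMSO 3 was left out (edgeR adjusted p up to 0.193, for Nap1l1), and without IPRN 1 those of Mrpl28 and Mrpl49 were lost (0.0672 and 0.0741). Gained without IPRN 1, beside the TOP mRNAs and Snhg1, were Eif4ebp2 (log2 fold change 0.22), Tsr2 (-0.39) and Mrps34 (1.69). Mrps34 had 17.3, 58.5 and 58.2 CPM in IPRN libraries and 17.9, 18.6 and 17.8 CPM in DMSO libraries, so that IPRN 1 lay with the DMSO libraries. For Mrps34 and the other genes of these lists gained without IPRN 1, overlap with other gene models was not looked up.

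As a share of the total count, the 84 genes together held 5.60, 6.19 and 6.09% in IPRN libraries and 6.38, 6.27 and 6.23% in DMSO libraries. The means were 5.96 ± 0.315% in IPRN and 6.29 ± 0.0769% in DMSO (SD, n = 3 each). All IPRN values lay below all DMSO values, IPRN 1 by far the most. With the sequence-matched copies included, the share was 7.69 ± 0.409% in IPRN and 8.14 ± 0.0789% in DMSO. Without IPRN 1 the difference of the means was -0.15 percentage points, against -0.33 with all libraries.

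Some values carry a further uncertainty from overlapping gene models, since no step of the labelled protocol marks the strand. Exons of 39 of the 84 genes overlap another gene model on either strand, and for 17 of them a named small nucleolar RNA gene is among these. Of the genes described above with per-library values, Rpl3, Rpl5, Rpl10a, Rpl22l1, Rpl35, Rps2, Rps10 and Rps18 are among the 39, and Rpl7, Rpl11, Rpl17, Rpl29, Rpl34, Rpl39, Rpl39l, Rpl41, Rplp0, Rps3a1, Rps4x, Rps6 and Rps15 are not. Rpl4 and Rpl30, called without IPRN 1, are among the 39 too. So are Rpl13, Rpl19 and Rpl28, called without IPRN 1 once the GC trend was removed, while Rpl36, also called there, is not.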

How the data were processed

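The authors deposited 1 table per library with whole-number counts per Ensembl gene and FPKM values, per the file headers. The submitters' processing notes name cutadapt 1.9, and the aligner, the counting tool, its treatment of multiply placed reads and the genome build were not given in the sources used here. Gene positions in the tables were identical to GENCODE M21 on GRCm38 for 94.2% of shared IDs and for 71 of the 84 members, and are printed as the tables give them. Per the labels' protocols, mRNA was selected by its poly(A) tail, cut into fragments and copied from random primers.

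Counts were fitted in R 4.3.3 with edgeR 4.0.16 over the whole table (TMM, default filter at a minimum count of 10, quasi-likelihood test, group as the only term), with Benjamini-Hochberg adjustment over 17159 genes; called means an adjusted p under 0.05. The standard error is the log2 fold change divided by the root of the F statistic, and 95% intervals use its t quantile. CPM are TMM-normalised, except in marker sums and shares. The deposited FPKM gave levels and an alternative test with limma 3.58.1; DESeq2 1.42.0 was another. Copies were matched with blastn 2.17.0 against GENCODE M21 transcripts, and RefSeq starts were matched by symbol. Counting floors cover counting error only. The fit was tested on counts simulated from its own estimates of spread. The simulation held no deviating library, GC trend or reads shared with copies, so it cannot show how the fit handles these.

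The members and all lists were chosen with earlier results of these data known. Genes described in full are the called members, the 5 highest and 5 lowest fold changes, the 5 highest FPKM, paralogs with parents, the stalk genes, Rpsa, Rps27a and Rps6, members outside the filter, and called genes of the other lists; the remaining ones were chosen after their values were seen, and some genes under this rule are not reported here. The labels do not say whether libraries came from separate cultures, so the p-values reflect library-to-library spread alone, and that spread may be technical.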

Additional observations from a re-analysis of the deposited data

How the results depend on the processing

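With all 6 libraries the number of ribosomal protein genes called lower was 0, and it was 1 with library size only (2.85% of all tested genes were called lower), with a mean count of at least 50 (4.57%), with named copies added (3.1%) and with sequence-matched copies added (3.29%), 3 on protein-coding rows (5.13%) and 6 by DESeq2 (7.41%). Leaving out 1 library at a time gave 0 to 8 lower and 0 to 1 higher, and 133 to 1047 genes called in all (938 with all libraries). The other translation lists, with 123 tested genes, then had 0 to 14 calls. With all libraries they had 8 (6.5%, against 5.47% of all tested genes). The highest of each came without IPRN 1, which for these lists was 11.4% against 5.86% of all tested genes. Without DMSO 1 and IPRN 3 together 53 genes were called and 0 in the other lists. With no filter 621 genes and 2 in the other lists were called, and by DESeq2 1911 (15% of the genes it tested) and 16. The replicate block gave 103 genes, 0 in the other lists and 0 ribosomal protein genes. Same-numbered libraries deviated with correlations of -0.175, 0.0864 and -0.13, and differently numbered ones with -0.162 to 0.237. With 3 libraries per group these correlations cannot settle whether the numbers pair libraries, and the labels do not say. The GC correction, chosen after seeing the data, gave 431 genes, 1 ribosomal protein gene lower and 0 in the other lists, and without IPRN 1 it gave 550 genes, 9 lower and 1 higher. Without IPRN 1 and with sequence-matched copies added, also chosen after seeing the data, 7 were lower and 1 higher (3.61% and 2.91% of all tested genes). The cause of these moves was not tested. Copies held 1.07% of all counts by name and 1.79% by sequence.

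The members' median log2 fold change ran from -0.10 to -0.02 over the alternatives. Of 798 values (42 genes, 19 alternatives), 677 kept direction and side of the threshold and 23 turned sign. Leaving out 1 library at a time, the log2 fold change ran from -1.07 to 0.014 for Rpl17, -0.0054 to 0.18 for Rpl27a, -0.061 to 0.24 for Rpl35, -0.055 to 0.045 for Rplp1, -0.21 to 0.00996 for Rps27l, -0.13 to 0.00705 for Rpl10, -0.19 to 0.039 for Rpl36a, -0.18 to 0.065 for Rplp2, -0.0496 to 0.0148 for Rpsa, -0.20 to 0.0298 for Rps27a, -0.097 to 0.068 for Fau, -0.11 to 0.20 for Rack1 and -0.013 to 0.22 for Rpl11. With the GC correction it was -0.034 for Rpl18, -0.0064 for Rpl35, -0.081 for Rps15, 0.027 for Rpl39l, 0.00399 for Rps27l and -0.00702 for Rps27. With named or sequence-matched copies Rps2 was at -0.12, and without DMSO 1 and IPRN 3 Rpsa was at 0.019. Counts of 13 or fewer per library limit Rpl3l and Rpl10l.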
